A study of Mus musculus with 6 samples.

Results

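The genes described here are 10 genes around NF-kB, a family of transcription factors that switch on inflammatory and survival genes: the subunits Nfkb2 and Relb, the inhibitors and feedback genes Nfkbia, Tnfaip3, Bcl3 and Birc3, and the target genes Cxcl1, Icam1, Ptgs2 and Tnfaip2. They were taken by symbol from a table of raw read counts that lists 25239 genes, and all 10 passed the filter on low counts that left 15256 genes for testing. The table holds 6 bulk RNA-seq libraries, 2 in each of 3 groups. The question asked of each gene was whether its mRNA differed between organoids with and without activation of the Braf V637E oncogene. The activated organoids were also compared with others in which the MEK and PI3K pathways were inhibited as well. The groups are separate samples, and no organoids were measured before and after a treatment.

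All groups were thyroid organoids from one engineered mouse embryonic stem cell line, a G4 RosaLuc line that carries the constructs TRE-Nkx2-1-Pax8 and bTg-NES-BrafV637E-ERT2. In this line doxycycline (1 µg/ml for 5 days) turned on Nkx2-1 together with Pax8, which direct the thyroid fate, and a bovine thyroglobulin promoter drove Braf V637E, which corresponds to V600E in human BRAF, fused to a receptor part that 4-hydroxytamoxifen (4OHT) activates. Every group also received the cyclic AMP analog 8-Br-cAMP, was enriched for follicles and was collected at day 31, with several wells pooled per sample. The cAMP group had vehicle and no 4OHT. The 4OHT group had 1 µM 4OHT for 5 days. The PD+LY group had 4OHT together with 250 nM PD0325901, which inhibits MEK, plus 5 µM LY204002, which inhibits PI3K, for 3 days. The inhibitors were given together, so the part of each cannot be told apart, and the methods give another length of 4OHT treatment for inhibitor experiments, so the days of 4OHT and the inhibitors cannot be told apart either. No line without Braf V637E was sequenced with 4OHT. Effects of 4OHT itself and of Braf V637E therefore cannot be told apart in these libraries. The duplicates are not stated to come from independent cultures, so p-values measure the spread between these libraries.

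As background, NF-kB dimers rest in the cytoplasm bound to inhibitors of the IkB family until signals from TNF, interleukin-1 or Toll-like receptors have these inhibitors phosphorylated and destroyed. In the canonical arm the freed dimers contain RelA or c-Rel with p50, and in the non-canonical arm the Nfkb2 product p100 is cut to p52, which pairs with RelB. NF-kB also switches on its own brakes, among them Nfkbia and Tnfaip3, so the mRNA of these genes is often read as a trace of recent NF-kB activity. In thyroid cancer, NF-kB target genes are known for their link with inflammation and cell survival.

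The promoter sequences were searched close to the start of the genes for the kappaB consensus, a form of the DNA motif that NF-kB dimers bind. RefSeq windows of GRCm38.p6, from 250 bases before to 50 bases after an annotated start site, were found for 9 of the 10 genes, and Relb has no entry. The 9 genes have 12 windows. Both strands were searched for the kappaB consensus, the 10 bases GGGRNNYYCC (R for A or G, Y for C or T, N for any base). They were also searched for the AP-1 motif TGANTCA, to which the Fos and Jun proteins downstream of ERK bind. A kappaB match was found in 8 of the 12 windows and in 6 of the 9 genes, namely Cxcl1, Tnfaip3, Tnfaip2, Nfkbia, Nfkb2 and Bcl3, while 8.46% of all 32851 windows held one. An AP-1 match was found in 2 of the 12 windows, 1 of Tnfaip3 and 1 of Nfkb2, against 7.81% of all windows, and neither overlapped a kappaB match. The windows of the 2 later Nfkb2 starts overlap and share 1 kappaB stretch, which is counted in both. The windows of Birc3, Icam1 and Ptgs2 held no match to either motif. Only exact matches were counted, so a site that departs from the pattern is missed. The Icam1 window, for example, holds tggaaattcc, which departs from the kappaB consensus in its first base only. A match describes the letters and does not show binding.

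The stretches below run from 100 bases before the start site to 20 after it, on the strand of the gene, with the kappaB matches in capitals. Cxcl1, Bcl3, Nfkb2 and Nfkbia are shown because they hold matches and differ in how their mRNA changed, and Ptgs2 because it changed without a match. The Cxcl1 stretch lies at chr5:90891145-90891264 on the plus strand, that of Bcl3 at chr7:19822736-19822855 on the minus strand, that of the first Nfkb2 start at chr19:46304637-46304756 on the plus strand, that of Nfkbia at chr12:55492628-55492747 on the minus strand and that of Ptgs2 at chr1:150099931-150100050 on the plus strand.
Cxcl1: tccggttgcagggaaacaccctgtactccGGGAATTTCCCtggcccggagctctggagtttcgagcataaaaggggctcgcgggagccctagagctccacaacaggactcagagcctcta
Bcl3: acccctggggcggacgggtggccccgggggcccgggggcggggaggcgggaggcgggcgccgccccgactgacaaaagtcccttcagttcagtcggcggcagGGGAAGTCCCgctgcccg
Nfkb2: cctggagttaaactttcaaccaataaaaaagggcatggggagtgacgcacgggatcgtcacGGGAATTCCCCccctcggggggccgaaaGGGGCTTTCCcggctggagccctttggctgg
Nfkbia: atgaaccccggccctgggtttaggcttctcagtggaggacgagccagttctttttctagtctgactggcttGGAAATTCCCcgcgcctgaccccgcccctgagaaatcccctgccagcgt
Ptgs2: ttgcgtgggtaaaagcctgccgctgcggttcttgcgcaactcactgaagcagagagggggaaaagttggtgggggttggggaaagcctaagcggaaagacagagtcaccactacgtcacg
In the Cxcl1 stretch, matches on both strands overlap and span bases -71 to -61 from the start site. The Nfkbia match spans bases -29 to -20. The Bcl3 match lies just after the start, at bases 3 to 12, and reads as a match on both strands. The first Nfkb2 window holds 2 separate stretches, the nearer one at bases -11 to -2.

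**Figure D1:**
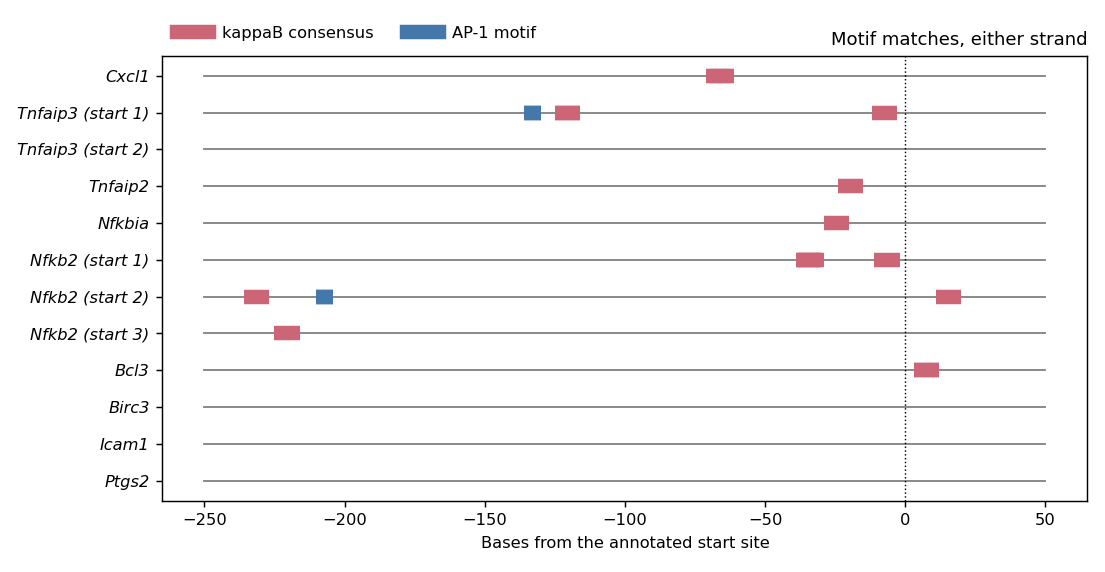
Positions of kappaB (red) and AP-1 (blue) matches on either strand in the 12 promoter windows of the 9 genes found, in bases from the annotated start site (dotted line). Matches stand in 8 windows for kappaB and in 2 for AP-1, and the windows of Birc3, Icam1 and Ptgs2 are empty.

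The libraries held 14898409 to 20637959 counts, so that 1 count stood for 0.0486 to 0.0667 CPM (counts scaled to a common library total, after TMM normalization). Replicates differed by more than counting error in each group, and the chi-square divided by its degrees of freedom was 4.55 for 4OHT, 8.32 for cAMP and 17.9 for PD+LY. In bulk tissue, fewer cells of a type and less RNA per cell cannot be told apart, and cells other than thyroid remain after follicle enrichment. With 2 libraries against 2, an exact two-sided permutation test cannot give a p below 0.3333, so single genes were tested with edgeR's quasi-likelihood test across all genes, with Benjamini-Hochberg adjustment. A gene is said to have risen or fallen where its adjusted p was under 0.05, and is called a differentially expressed gene (DEG) where it also changed by at least 2-fold.

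After Braf V637E activation (4OHT against cAMP), 3 of the 10 genes rose, Bcl3, Icam1 and Ptgs2, and none fell with edgeR. Of all tested genes 4.04% rose and 4.35% fell. None fell with DESeq2 either. At an unadjusted p under 0.05, 5 of the 10 genes were higher (Cxcl1 and Relb were added), against 11.7% of all tested genes, and 0 lower, against 12.2%. Bcl3 alone was a DEG, against 2.67% of all tested genes. The libraries of both groups did not overlap for 6 of the 10 genes, close to the 58.5% of all tested genes for which they did not. The median log2 fold change of the 10 genes was 0.38, with 9 above and 1 below 0, and the median of all tested genes was -0.0022.

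After MEK and PI3K inhibition (PD+LY against 4OHT), 6 of the 10 genes fell, Cxcl1, Ptgs2, Tnfaip2, Bcl3, Nfkb2 and Icam1, and none rose with edgeR. Of all tested genes 12.1% fell and 10.7% rose. None rose with DESeq2 either. At an unadjusted p under 0.05, 7 of the 10 genes were lower (Tnfaip3 was added), against 18.8% of all tested genes, and 1, Birc3, was higher, against 18%. Cxcl1 and Ptgs2 were DEGs, against 7.26% of all tested genes. The libraries did not overlap for 8 of the 10 genes, against 62.3% of all. The median log2 fold change was -0.56, with 2 genes above and 8 below 0, and that of all tested genes was 0.0077. All 6 of these calls were lost without the second 4OHT library. In that edgeR fit 0 of the 10 genes passed the adjusted p, and the number of all tested genes that rose went from 1630 to 475 and that of genes that fell from 1839 to 723. At an unadjusted p under 0.05, 5 of the 10 genes were lower in it, against 12.3% of all tested genes. The log2 fold changes stayed close for Tnfaip2 (-0.73), Bcl3 (-0.52) and Nfkb2 (-0.50), while that of Cxcl1 went from -2.21 to -1.22. Without any 1 of the other libraries, Cxcl1, Ptgs2, Tnfaip2, Bcl3 and Nfkb2 still fell. Of these 5 fits, only the one without the second PD+LY library called the fall of Icam1, and Tnfaip3 fell without the first PD+LY library. Relb passed as higher without the first PD+LY library, and Birc3 without the second.

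In the inhibited organoids relative to the cAMP group (PD+LY against cAMP), Relb and Bcl3 rose and none of the 10 genes fell, against 12.1% and 13.7% of all tested genes, and none was a DEG, against 9.24%. None fell with DESeq2 either. At an unadjusted p under 0.05, 4 of the 10 genes were higher and 2 lower, against 18.3% and 19.8% of all tested genes. The libraries did not overlap for 8 of the 10 genes, against 61.4% of all, and the median log2 fold change was -0.24, with 4 genes above and 6 below 0. The 3 comparisons share libraries, so a gene's values in them are given side by side and are not independent of one another.

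**Figure D2:**
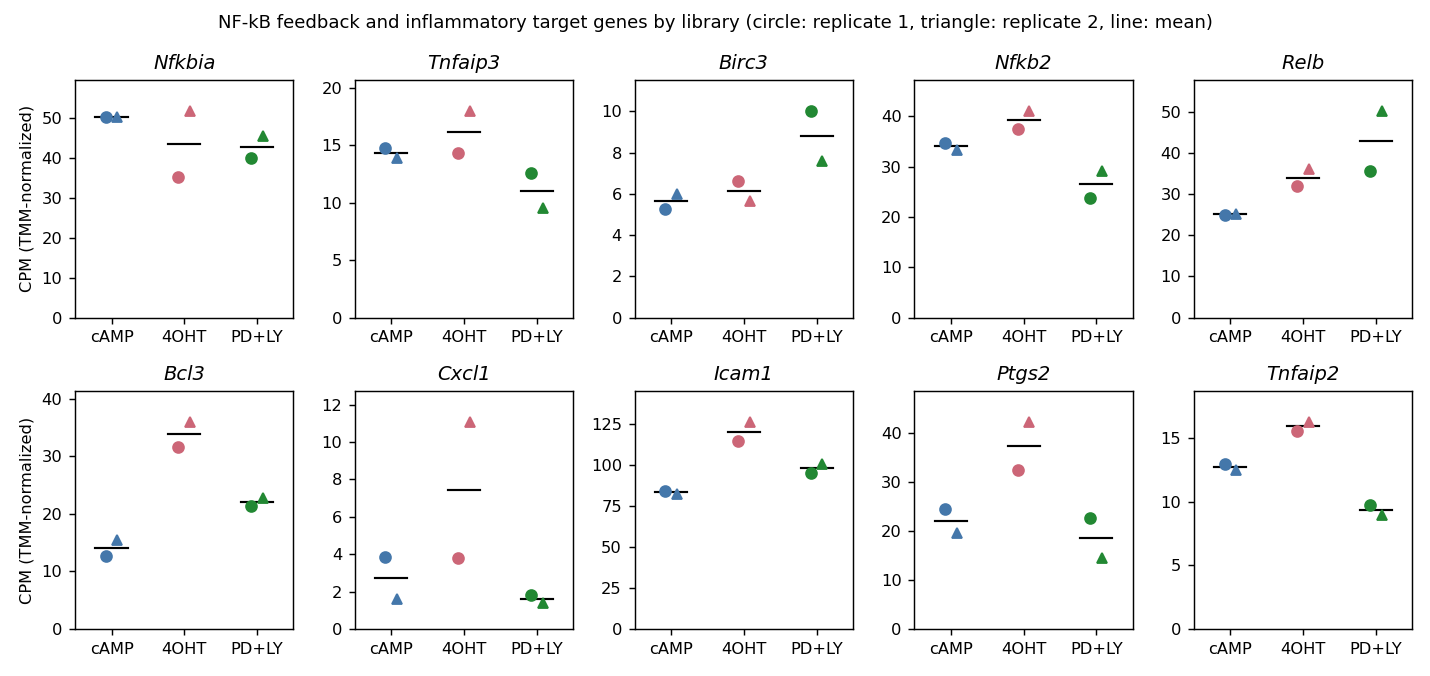
TMM-normalized CPM (y axes from 0, each gene on its own scale) of the 10 genes in the 3 groups on the x axes, with replicate 1 as a circle, replicate 2 as a triangle and the mean as a line. Bcl3, Icam1, Ptgs2, Tnfaip2 and Nfkb2 are highest in both 4OHT libraries. Relb and Birc3 have their highest library in PD+LY, and a single 4OHT library stands far above the rest for Cxcl1.

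Bcl3 encodes an atypical IkB protein that works in the nucleus with p50 and p52 dimers, and it was the one DEG of the 10 genes after Braf V637E activation. Its CPM was 12.7 and 15.4 in cAMP, 31.7 and 35.9 in 4OHT, and 21.3 and 22.8 in PD+LY. The groups did not overlap, with 4OHT highest, PD+LY between and cAMP lowest. The means were 14.1 ± 1.94 for cAMP, 33.8 ± 3.00 for 4OHT and 22.02 ± 1.04 for PD+LY (SD, n = 2 each). By edgeR with Benjamini-Hochberg adjustment, Bcl3 rose 2.40-fold in 4OHT against cAMP (log2 1.26, SE 0.149, adjusted p = 0.000512). It fell in PD+LY against 4OHT (log2 -0.62, SE 0.144, adjusted p = 0.00961) but was above cAMP in PD+LY (log2 0.64, SE 0.149, adjusted p = 0.00821). With any 1 library left out, the log2 value for 4OHT against cAMP lay between 1.13 and 1.42 and passed the test each time. Bcl3 lies at chr7:19808462-19822770 (GRCm38), and 161 of its exonic bases overlap an antisense gene, Gm16175, whose reads cannot be told apart in counts made without strand.

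Nfkbia encodes IkB-alpha, the inhibitor that NF-kB itself induces to end its own activity, and it was the most abundant of the 10 genes per exon length in the cAMP group. Its CPM was 50.2 and 50.4 in cAMP, 35.3 and 51.9 in 4OHT, and 40.02 and 45.6 in PD+LY. The 4OHT libraries lay on either side of those of both other groups, so the groups overlapped in each comparison with 4OHT. The log2 fold change was -0.20 (SE 0.162, adjusted p = 0.487) in 4OHT against cAMP, -0.03 (SE 0.162, adjusted p = 0.921) in PD+LY against 4OHT and -0.23 (SE 0.161, adjusted p = 0.32) in PD+LY against cAMP. Nfkbia passed the test in none of the 3. The gene lies at chr12:55489410-55492647.

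Tnfaip3 encodes A20, a ubiquitin-editing enzyme that shuts off signalling from TNF and Toll-like receptors. Its CPM was 14.8 and 13.8 in cAMP, 14.3 and 18.0 in 4OHT, and 12.5 and 9.53 in PD+LY. The PD+LY libraries were the lowest, and those of cAMP and 4OHT overlapped. The difference of PD+LY from 4OHT, a log2 fold change of -0.56 (SE 0.186), had an adjusted p of 0.0501 by edgeR with Benjamini-Hochberg adjustment, just short of passing. Between 4OHT and cAMP the log2 fold change was 0.18 (adjusted p = 0.599). Tnfaip3 lies at chr10:19000910-19015657.

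Birc3 encodes cIAP2, a ubiquitin ligase that sustains TNF signalling and protects from cell death, and it was among the least abundant genes. Its CPM was 5.28 and 5.99 in cAMP, 6.60 and 5.65 in 4OHT, and 10.03 and 7.58 in PD+LY. Both PD+LY libraries were above the other 4, and cAMP and 4OHT overlapped. The log2 fold change was 0.53 (SE 0.22, adjusted p = 0.105) in PD+LY against 4OHT and 0.64 (SE 0.22, adjusted p = 0.0512) in PD+LY against cAMP, neither of which passed. Birc3 lies at chr9:7848699-7873186.

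The subunit genes Nfkb2 and Relb encode the partners of the non-canonical arm. Nfkb2 encodes p100, the precursor of p52. Its CPM was 34.8 and 33.3 in cAMP, 37.5 and 41.1 in 4OHT, and 23.8 and 29.2 in PD+LY, with no overlap between groups and PD+LY lowest. Nfkb2 fell in PD+LY against 4OHT (log2 -0.57, SE 0.135, adjusted p = 0.0109), while its log2 fold change was 0.21 in 4OHT against cAMP (adjusted p = 0.375) and -0.36 in PD+LY against cAMP (adjusted p = 0.0715). The gene lies at chr19:46304320-46312385, and 299 of its exonic bases overlap Psd and 531 a non-coding gene, both on the opposite strand.

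Relb encodes RelB, the subunit that pairs with p52. Its CPM was 24.96 and 25.3 in cAMP, 32.1 and 36.1 in 4OHT, and 35.7 and 50.4 in PD+LY. The cAMP libraries were the lowest, and those of 4OHT and PD+LY overlapped, with the PD+LY replicates far apart. Relb rose 1.71-fold in PD+LY against cAMP (log2 0.78, SE 0.16, adjusted p = 0.00423). Neither step alone passed in the edgeR fit of all libraries. The log2 fold change was 0.44 (SE 0.162, adjusted p = 0.12) in 4OHT against cAMP and 0.34 (SE 0.159, adjusted p = 0.148) in PD+LY against 4OHT. The difference of 4OHT from cAMP did pass in an edgeR fit of only these groups (log2 0.45, adjusted p = 0.0234). It also passed without a filter on low counts and with the replicate number as a block. It did not pass with DESeq2 (adjusted p = 0.11), RLE scaling or a minimum of 10 counts in all libraries. Relb lies on the same chromosome as Bcl3, at chr7:19606217-19629438.

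**Figure D3:**
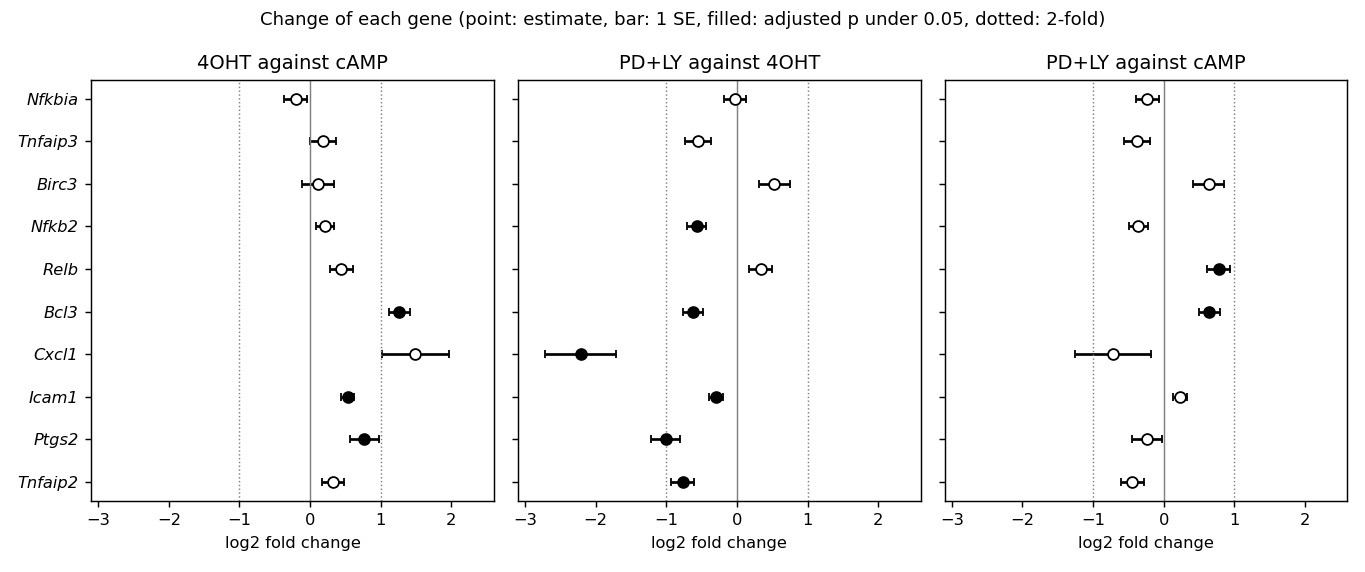
Log2 fold change (x axis) of each of the 10 genes in the 3 comparisons by edgeR, with bars of 1 SE, filled points where the adjusted p was under 0.05 and dotted lines at 2-fold. Bcl3 is the filled point past 2-fold in 4OHT against cAMP, and Cxcl1 and Ptgs2 are those past 2-fold in PD+LY against 4OHT.

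Among the target genes, Cxcl1 had the largest log2 fold change of the 10 genes in both comparisons with 4OHT, and its 4OHT replicates were far apart. Cxcl1 encodes a chemokine that draws neutrophils through the receptor CXCR2. Its CPM was 3.83 and 1.61 in cAMP, 3.80 and 11.1 in 4OHT, and 1.83 and 1.41 in PD+LY, from counts of 61, 33, 57, 202, 36 and 29. The second 4OHT library stood alone at the top, and the first was below one of the cAMP libraries. Cxcl1 fell 4.63-fold in PD+LY against 4OHT (log2 -2.21, SE 0.5, adjusted p = 0.00841). Without the second 4OHT library this log2 fold change was -1.22 (adjusted p = 0.176).

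For 4OHT against cAMP the log2 fold change of Cxcl1, 1.49 (SE 0.479), did not pass with edgeR (adjusted p = 0.0781). DESeq2 gave 1.47 with an adjusted p of 0.0392, which passes, and over the fits that left out 1 library the value ran from 0.51 to 2.22. It passed without the first cAMP library (2.22, adjusted p = 0.0351), without the first 4OHT library (2.05, adjusted p = 0.0384) and without the first PD+LY library (adjusted p = 0.0475). In PD+LY against cAMP the log2 fold change was -0.72 (adjusted p = 0.357). Cxcl1 lies at chr5:90891241-90893115.

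Ptgs2 encodes COX-2, the inducible enzyme of prostaglandin synthesis. Its CPM was 24.5 and 19.6 in cAMP, 32.5 and 42.3 in 4OHT, and 22.7 and 14.5 in PD+LY. Both 4OHT libraries were above the other 4, and cAMP and PD+LY overlapped. Ptgs2 rose 1.70-fold in 4OHT against cAMP (log2 0.77, SE 0.207, adjusted p = 0.0406) and fell 2.01-fold in PD+LY against 4OHT (log2 -1.01, SE 0.208, adjusted p = 0.00506). Its log2 fold change in PD+LY against cAMP was -0.24 (SE 0.21, adjusted p = 0.434). The fall was -0.80 without the second 4OHT library (adjusted p = 0.0788) and -0.72 without the second PD+LY library (adjusted p = 0.015). Ptgs2 lies at chr1:150100031-150108227.

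Icam1 encodes an adhesion molecule that leukocytes bind through integrins, and it was the second most abundant of the 10 genes per exon length in cAMP. Its CPM was 84.2 and 82.7 in cAMP, 114.8 and 126.3 in 4OHT, and 95.3 and 100.7 in PD+LY. The groups did not overlap, in the same order as for Bcl3. Icam1 rose 1.45-fold in 4OHT against cAMP (log2 0.53, SE 0.0969, adjusted p = 0.007) and fell 1.23-fold in PD+LY against 4OHT (log2 -0.30, SE 0.0962, adjusted p = 0.0429). Leaving out any library but the second PD+LY library ended the call of this fall, with log2 values from -0.36 to -0.23, as did a fit of only the groups compared (adjusted p = 0.0664). In PD+LY against cAMP the log2 fold change was 0.23 (adjusted p = 0.1). Icam1 lies at chr9:21015985-21028817, and 511 of its exonic bases overlap the antisense gene Gm47079.

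The rises of Icam1 and Ptgs2 in 4OHT against cAMP were not called in any fit that left out a cAMP or a 4OHT library. In these fits the log2 fold change of Icam1 stayed between 0.46 and 0.60 (adjusted p from 0.0504 to 0.121) and that of Ptgs2 between 0.56 and 0.95. Only Bcl3 passed without the second cAMP library and without the second 4OHT library, and Bcl3 and Cxcl1 passed without the first library of either group.

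Tnfaip2 encodes a cytoplasmic protein induced by TNF that takes part in the formation of membrane protrusions. Its CPM was 12.9 and 12.5 in cAMP, 15.6 and 16.3 in 4OHT, and 9.72 and 8.99 in PD+LY. The groups did not overlap, with 4OHT highest and PD+LY lowest, and the replicates were close. Tnfaip2 fell 1.70-fold in PD+LY against 4OHT (log2 -0.77, SE 0.16, adjusted p = 0.00538). Its log2 fold change was 0.33 in 4OHT against cAMP (adjusted p = 0.234) and -0.44 in PD+LY against cAMP (adjusted p = 0.0624). Tnfaip2 lies at chr12:111442469-111455018, and 314 of its exonic bases overlap the antisense gene Gm40578.

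Levels of different genes were compared as CPM per kilobase of exon, using the union of exons in GENCODE M21. In cAMP the mean level per kilobase was highest for Nfkbia (31.2), then Icam1 (19.1), Nfkb2 (7.43), Relb (6.47), Bcl3 (5.68), Ptgs2 (4.81), Tnfaip2 (2.56), Tnfaip3 (1.98), Cxcl1 (1.45) and Birc3 (1.12). Neighbours whose libraries overlapped in this order were Bcl3 with Ptgs2, Tnfaip3 with Cxcl1 and Cxcl1 with Birc3. In 4OHT Icam1 (27.6) and Nfkbia (27.1) overlapped at the top, followed by Bcl3 (13.7), which had moved above Relb (8.78), Nfkb2 (8.58) and Ptgs2 (8.17), and these latter 3 overlapped. Below them, Cxcl1 (3.97) overlapped both Tnfaip2 (3.20) and Tnfaip3 (2.24), and Birc3 (1.22) was lowest. In PD+LY the levels per kilobase were 26.6 for Nfkbia, 22.5 for Icam1, 11.1 for Relb, 8.89 for Bcl3, 5.79 for Nfkb2, 4.07 for Ptgs2, 1.88 for Tnfaip2, 1.76 for Birc3, 1.53 for Tnfaip3 and 0.865 for Cxcl1, which was lowest there. The neighbours that overlapped in PD+LY were Tnfaip2 with Birc3 and Birc3 with Tnfaip3, and the libraries of Relb lay just above those of Bcl3. The exons of Cxcl1 merge into 1 block of 1875 bases in this annotation, which lowers its level per kilobase where introns are included.

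**Figure D4:**
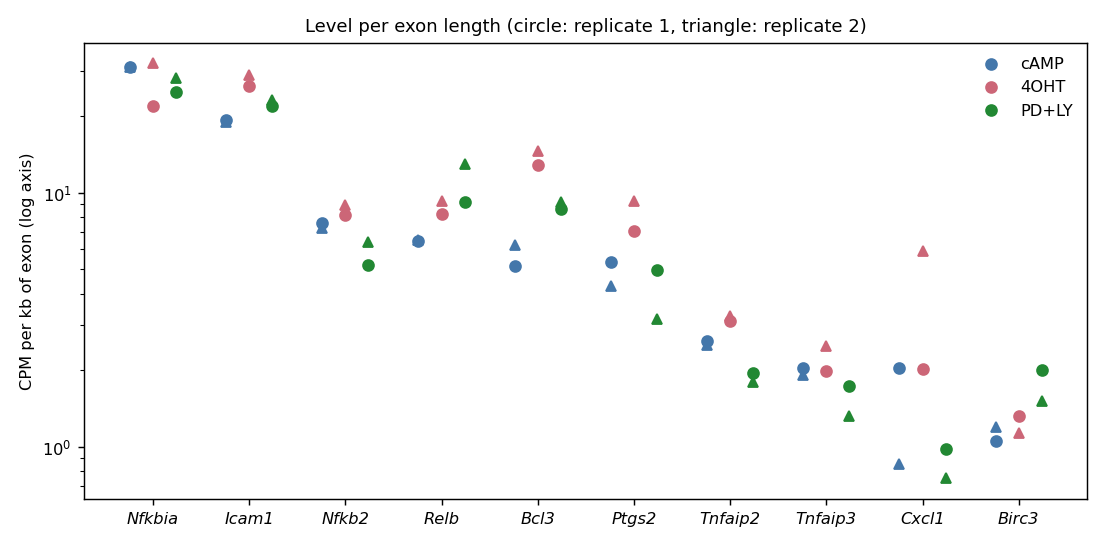
CPM per kilobase of exon (log axis) of the 10 genes, ordered by their cAMP mean, with replicate 1 as a circle and replicate 2 as a triangle in each group. Nfkbia and Icam1 stand above the other genes in all 6 libraries, and Bcl3 moves from a mean of 5.68 in cAMP to 13.7 in 4OHT.

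The 10 genes differed in how they varied. Over the 6 libraries the Pearson correlation of log2 CPM had a median of 0.32 over the 45 pairs of genes, was at least 0.8 in 8 pairs and was below 0 in 15, with the lowest value, -0.87, between Nfkb2 and Birc3. These values describe 6 libraries that fall into 3 groups. The 5 genes whose log2 CPM was most like that of Cxcl1, among the 12223 genes that averaged 50 counts or more, were Dmc1 (r = 0.99), Larp1b (0.977), Slc6a8 (0.963), Inpp4a (0.962) and AI413582 (0.955). All 5 had their highest count in the second 4OHT library, as Cxcl1 did. They were picked as the closest of 12223 genes over 6 libraries, so high r values can come from the picking alone. The r takes no account of the size of a change: Dmc1 had 266 to 362 counts and Cxcl1 29 to 202.

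Of the other genes of the pathway, 91 were listed and 75 tested. Among these, Tnfrsf11a, Il1a and Ccl7 passed the filter on low counts through the 4OHT libraries only, so their differences from 4OHT are a description, and they are left out of the counts and medians. Of the other 72 genes, 9 rose and 2 fell between cAMP and 4OHT, against 4.04% and 4.35% of all tested genes, with a median log2 fold change of 0.14. In PD+LY against 4OHT 8 rose and 22 fell, against 10.7% and 12.1%, with a median of -0.11. In PD+LY against cAMP 4 rose and 13 fell, against 12.1% and 13.7%, with a median of -0.10. The same shares of all tested genes stand beside the counts of each list below.

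Of the canonical subunits 1 changed. Rela and Rel, which encode RelA and c-Rel, passed the test in no comparison, with log2 fold changes in PD+LY against 4OHT of 0.15 and -0.04. Nfkb1, which encodes p105 and p50, fell in PD+LY against 4OHT (log2 -0.39, adjusted p = 0.0289). Of the 4 further IkB genes only Nfkbib rose in 4OHT and fell under the inhibitors. Of 24 kinases, adaptors and regulators, 1 rose and 1 fell after 4OHT, 3 rose and 0 fell under the inhibitors relative to 4OHT, and none was a DEG in these comparisons.

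Among the receptors, 13 of 14 were tested, and 2 rose and 3 fell under the inhibitors relative to 4OHT. Tnfrsf12a and Tnfrsf1b, receptors of TWEAK and TNF, rose in 4OHT against cAMP (log2 0.69 and 0.55) and fell in PD+LY against 4OHT (log2 -1.25 and -1.03). Il18r1, a chain of the interleukin-18 receptor, fell in PD+LY against 4OHT (log2 -1.90), while the Toll-like receptors Tlr2 and Tlr5, which sense bacterial lipoproteins and flagellin, rose (log2 1.28 and 2.65). Tlr5 had 4 to 60 counts per library.

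Of 11 ligands, 6 were tested, and of the 5 apart from Il1a, 2 fell in PD+LY against 4OHT. These were Tnfsf12, which encodes TWEAK (log2 -1.57), and Il33 (log2 -1.05). Il1a, which encodes interleukin-1 alpha, had 8 and 10 counts in cAMP, 21 and 23 in 4OHT, and 5 and 4 in PD+LY. Tnf and Il1b, the classical inducers, were not tested. Tnf had 0 to 8 counts and Il1b 0 or 1, so that Il1b was under the floor of 3 counts in every library and its mRNA could not be measured at this depth.

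The other chemokine and cytokine targets, in the same family as Cxcl1 or induced alongside it, mostly fell under the inhibitors. Of 15 listed, 8 were tested. Of the 7 apart from Ccl7, 1 rose in 4OHT against cAMP and 6 fell in PD+LY against 4OHT, 5 of them as DEGs, with a median log2 fold change of -1.20. Ccl7, a monocyte chemokine, had 4 and 8 counts in cAMP, 34 and 36 in 4OHT, and 8 and 5 in PD+LY. Lif, a cytokine of the interleukin-6 family, had 11.5 and 12.6 CPM in cAMP, 23.6 and 27.5 in 4OHT, and 10.4 and 8.26 in PD+LY. It rose by 1.09 on the log2 scale and then changed by -1.46. Cxcl5, a neutrophil chemokine like Cxcl1, Ccl2 and Cxcl16 fell in PD+LY against 4OHT (log2 -1.36, -1.21 and -1.20).

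The other targets were mixed. Of 20 listed, 17 were tested, and in PD+LY against 4OHT 9 fell and 3 rose, with a median log2 fold change of -0.69. The matrix proteases Mmp3 (log2 -3.98) and Mmp9 (log2 -2.25), the stress gene Ier3 (log2 -2.13) and the iron-siderophore carrier Lcn2 (log2 -2.06) fell. Ier3, like Lif and Tnfrsf12a above, is also a gene of the ERK score that the study used. These genes are counted in the pathway lists here and not in the MEK/ERK output list below. Saa3, an acute-phase protein, rose, with 14.5 and 14.7 CPM in 4OHT and 84.2 and 77.6 in PD+LY (log2 2.47, adjusted p = 6.76e-06). Sod2 and Irf1, named after their values were seen, were the other two that rose.

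**Figure D5:**
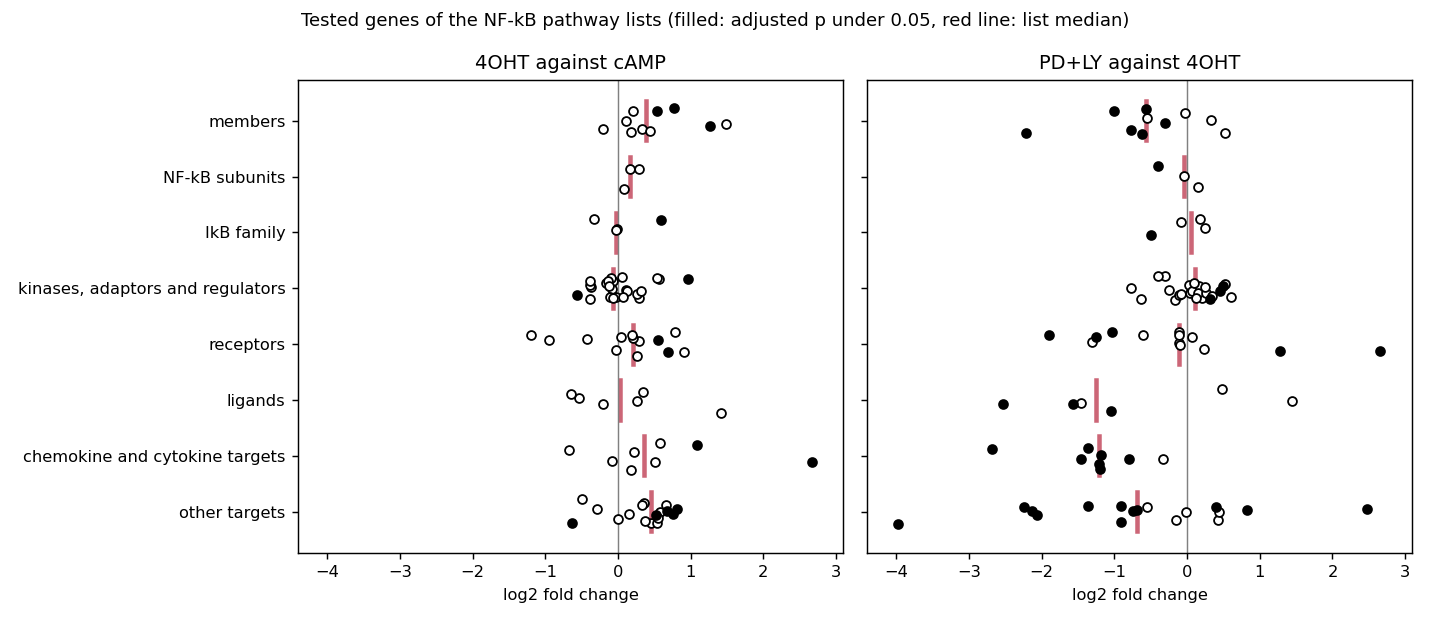
Log2 fold change (x axes) of every tested gene of the 10 genes described and of 7 lists of other pathway genes, with filled points where the adjusted p was under 0.05 and a red line at each list's median. In PD+LY against 4OHT the medians of the ligands and of the chemokine and cytokine targets, drawn with Il1a and Ccl7, lie under -1, and those of the subunits, inhibitors and kinases lie near 0.

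Several other gene lists moved with these groups, and their part in the results was not tested. Of 12 genes of MEK/ERK output, Fosl1 passed the filter through the 4OHT libraries only. Of the other 11, 1 rose (Etv4) and 3 fell in 4OHT against cAMP, with a median log2 fold change of -0.34, and 9 fell in PD+LY against 4OHT, with a median of -2.04. Spry4 had 21.1 and 20.1 CPM in 4OHT and 0.255 and 0.243 in PD+LY. Of 16 macrophage and leukocyte markers 6 had at least 3 counts in every library, and Ptprc, Adgre1, C1qa and C1qb had no count. Their summed level was 63.8 to 74.2 CPM in cAMP and 4OHT and 35.6 to 38.3 in PD+LY, most of it from Cd68 (30.8 to 66.2 CPM). Of 12 endothelial markers 10 had at least 3 counts in every library. In 4OHT against cAMP 4 fell, by 1.47 (Cdh5) to 3.46 (Tie1) on the log2 scale, and Pecam1 rose (log2 0.36), and in PD+LY against 4OHT 3 fell. Their summed level was 227 to 231 CPM for cAMP, 243 to 244 for 4OHT and 207 to 216 for PD+LY, most of it from Pecam1 (128 to 171 CPM). All 12 mesenchymal markers had at least 3 counts in every library, and their summed level was 1458 and 1622 CPM in cAMP, 2588 and 2738 in 4OHT, and 5217 and 4423 in PD+LY, with the collagen genes Col1a1, Col1a2 and Col3a1 at 242 to 1447 CPM each. In 4OHT against cAMP 4 of the 12 rose and 0 fell, and in PD+LY against 4OHT 5 rose and 4 fell, namely Pdgfrb, Thy1, Vim and Twist1. Of 12 thyroid markers 11 had at least 3 counts in every library. The summed level of the 12 was 1660 and 1111 CPM in cAMP, 574 and 768 in 4OHT, and 2000 and 999 in PD+LY.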

How the data were processed

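RNA from 6 organoid samples (3 groups of 2) was sequenced from TruSeq stranded libraries. The authors trimmed the reads, aligned them to mm10 with HISAT2 and counted them for each gene symbol with HTSeq, ignoring strand. The deposited values are the raw counts, not normalized. Groups were taken from the sample labels. Totals and the CPM worth of 1 count are given in the text, and levels under 3 counts were not read. The floor covers counting error only. Each SE was derived from the log2 fold change and the F statistic of the quasi-likelihood test, so it includes the estimated spread between libraries.

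Counts were analysed in R 4.3.3 with edgeR 4.0.16: filterByExpr (minimum count 10, minimum total 15, which removed 9983 genes), TMM normalization (factors 0.991 to 1.01), 1 quasi-likelihood fit of the 3 groups, and Benjamini-Hochberg adjustment over 15256 genes. DEGs had an adjusted p under 0.05 and a change of at least 2-fold. Correlations used log2 CPM with a prior count of 2. The alternatives were DESeq2 1.42.0 (the tool of the study), no filter on low counts, RLE scaling, a minimum of 10 counts in all libraries, a fit to the compared groups alone, a block for the replicate number, no fold threshold, and leaving out each library. On simulated data for 4OHT against cAMP (15022 genes), edgeR recovered 70 of 99 genes changed 2-fold and 94 of 99 changed 4-fold, with 11 false calls. A gene was recovered where it passed the adjusted p in the right direction. The fold threshold of a DEG was not applied there.

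The genes described and the lists were chosen with earlier results of these data known, so lists are described by counts and medians without a test. All 10 genes are named. Of the pathway lists, up to 5 DEGs per list with the largest change are named, together with Rela, Rel, Nfkb1, Tnf and Il1b, and of the other lists the defining genes at 0 and up to 3 per list. Positions and exon lengths are from GENCODE M21 (GRCm38, the assembly of mm10), which may differ from the authors' gene models. Promoter windows are from RefSeq. The 8-Br-cAMP dose is not given, since its unit differs between the sources.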

Additional observations from a re-analysis of the deposited data

How the results depend on the processing

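Of the log2 fold changes of the 10 genes under the alternatives, 345 kept their direction and stayed a DEG or not a DEG, 7 became DEGs, 3 no longer were and 5 turned. On single thresholds more values moved: of 360 values, 20 lost and 25 gained an adjusted p under 0.05, and 6 crossed the 2-fold line. Among the 10 genes, 1 rose as a DEG in 4OHT against cAMP, as did 178 of all tested genes. This became 2 with DESeq2 (all tested genes 167), without a filter on low counts (245) and with the replicate number as a block (227). Cxcl1 was added each time. By adjusted p alone 3 of the 10 genes rose, against 617 of all tested genes. The 2 that fell as DEGs in PD+LY against 4OHT became 6 by adjusted p alone and 0 to 2 with 1 library left out. None rose as a DEG in PD+LY against cAMP, against 2 by adjusted p alone and 0 to 1 with 1 library left out, where Relb had a log2 fold change of 1.00 without the first PD+LY library. Bcl3 did not pass in PD+LY against cAMP without the first cAMP library. The 5 values that turned passed no test. With 1 library left out, Nfkbia ran from -0.51 to 0.05 (without the first 4OHT library) for 4OHT against cAMP. For PD+LY against 4OHT it ran from -0.27 to 0.28 (without the second 4OHT library), with 0.06 without the first PD+LY library. For PD+LY against cAMP, Cxcl1 ran from -1.23 to 0.01 (without the first cAMP library) and Ptgs2 from -0.60 to 0.05 (without the second PD+LY library). The cause of these changes was not tested beyond the smaller number of libraries.

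By adjusted p alone, 617 of all tested genes rose and 663 fell in 4OHT against cAMP, with 1630 and 1839 for PD+LY against 4OHT, and 1840 and 2085 in PD+LY against cAMP, compared with 178 and 230, 359 and 748, and 457 and 952 DEGs. With 1 library left out, DEGs that rose numbered 77 to 212 and those that fell 87 to 275 in 4OHT against cAMP, then 205 to 426 and 427 to 750 for PD+LY against 4OHT, and 368 to 439 and 718 to 958 in PD+LY against cAMP. A group left with 1 library is assumed to vary like the others. The median of all tested genes moved by less than 0.1 under every scaling.

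The methods do not state whether libraries with the same replicate number share a batch, and this was not tested. The correlation of the deviations of same-numbered libraries from the group means was 0.0718, 0.207 and 0.0586 for the 3 pairs of groups. With the number as a block, 5 of the 10 genes rose by adjusted p in 4OHT against cAMP, in place of 3 (Cxcl1 with a log2 fold change of 1.46, and Relb, were added), while all tested genes went from 617 and 663 to 1131 that rose and 1242 that fell. Similarly, 7 fell in place of 6 in PD+LY against 4OHT (Tnfaip3 was added, all tested genes 2351 and 2391), and 3 rose and 2 fell in place of 2 and 0 in PD+LY against cAMP (all tested genes 2424 and 2633). Il1b, at 0 or 1 count, could not be tested at this depth.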
